A study of Homo sapiens with 12 samples.

Results

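The genes described here are those of the ubiquitin ligase through which lenalidomide acts, together with other proteins tied to its substrate receptor, cereblon. They were chosen by name for their part in this pathway, with earlier results of these data known, and are 10 of the 38478 genes in the deposited expression table. CRBN (cereblon), DDB1, CUL4A, CUL4B and RBX1 encode the ligase, ZFP91 and CSNK1A1 encode proteins that the ligase degrades in the presence of the drug, and GLUL, BSG and SLC16A1 encode other proteins handled by cereblon. OPM-1 cells, an established human multiple myeloma line, received one of 4 treatments for 48 h. These were the solvent DMSO, lenalidomide (LEN) at 0.1 μM, the compound AI-10-104 at 1 μM, which inhibits RUNX transcription factors and is named RUNXi in the sample labels, and both agents at those doses (LEN+AI-10-104). Polyadenylated RNA of 3 biological replicates per condition was sequenced, which gives 12 samples of a single cell line, dose and time point. These are levels of mRNA, and the drug acts on these proteins after translation, so protein abundance was not measured here.

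Cereblon is the substrate receptor of a cullin-RING ligase. The adaptor DDB1 joins it to a cullin scaffold, CUL4A or CUL4B, whose other end holds the RING protein RBX1, which recruits the ubiquitin-loaded enzyme. Lenalidomide and related drugs occupy a pocket on cereblon and create a surface that binds proteins the receptor would otherwise ignore, called neosubstrates, of which the IKAROS factors IKZF1 and IKZF3 are the best known in myeloma. The zinc finger protein ZFP91 and the kinase CK1α, product of CSNK1A1, are other neosubstrates. Glutamine synthetase, product of GLUL, is a natural cereblon substrate, and basigin (BSG) and the lactate transporter MCT1 (SLC16A1) form a membrane complex whose maturation cereblon assists.

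Because one agent targets RUNX factors, the start regions of these genes were searched for TGTGGT, the core letters of the RUNX motif, on both strands. The RefSeq windows (GRCh38.p14) span 300 bases, of which 250 lie before each annotated start. Of 35116 such windows 13.1% hold the letters, and 9 of the genes have 19 windows, of which 1 holds them. SLC16A1 has no entry. The run for CRBN is shown because cereblon is the drug's receptor, and lies immediately upstream of its outermost RefSeq start at chr3:3179718-3179967, minus strand. The run for CUL4B surrounds the single match, from 70 to 41 bases before one of its starts at chrX:120561003-120561032, minus strand and inside the annotated span of the gene, with the match on the opposite strand in capitals.
CRBN: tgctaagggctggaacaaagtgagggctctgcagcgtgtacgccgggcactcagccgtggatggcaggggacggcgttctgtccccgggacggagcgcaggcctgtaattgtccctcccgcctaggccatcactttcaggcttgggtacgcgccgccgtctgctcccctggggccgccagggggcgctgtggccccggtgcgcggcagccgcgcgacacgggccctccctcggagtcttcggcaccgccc
CUL4B: ccctttcccccaACCACAgcctctcccctc
A match describes letters only, and its absence from a window says nothing about binding elsewhere. CUL4B did not pass the test for a change with AI-10-104, at a log2 fold change of 0.02 ± 0.05 (SE).

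The samples held between 16352548 and 31386210 reads counted on genes, with the lowest median, 19417027, in LEN+AI-10-104. Its samples, at up to 20419807 reads, lay below all of DMSO (from 21297486) and all of AI-10-104 (from 22784874). They overlapped LEN (from 19442512). The part of depth in those comparisons was not tested. Values are in RPKM, reads per kilobase of the deposited gene length, scaled to a common total of reads on genes. All 11 plasma cell and myeloma markers looked for were expressed. Their levels summed to 2100 to 2180 RPKM in DMSO and 2010 to 2110 RPKM in LEN. The sums were 2270 to 2320 RPKM in AI-10-104, above all other samples, and 2080 to 2220 RPKM with both agents. FGFR3 supplied 529 to 625 RPKM of these sums. The B cell marker PAX5, the T cell marker CD3D and the NK cell marker NKG7 were listed at 0 in all 12 samples. So were COL1A2 and VWF of stroma and endothelium. Others of those lists were detected, CD3E at 0.162 to 0.551 RPKM and PECAM1 at 0.932 to 1.47 RPKM. None of the 4 myeloid markers was at 0 in all 12 samples. Among them LYZ ranged from 0.0216 to 0.217 RPKM, and CD14 reached 0.234 RPKM. CIITA, also found in earlier B cells, ranged from 2.14 to 4.85 RPKM, and the B cell list that holds it summed to 2.17 to 2.29 RPKM in DMSO and 4.39 to 4.86 RPKM in LEN+AI-10-104. The 4 markers of stroma and endothelium summed to 0.932 to 0.95 RPKM in DMSO and to 1.12 to 1.48 RPKM over the treated samples, with no overlap. These sums are almost wholly PECAM1, since COL1A1 reached at most 0.0166 RPKM and the other markers of that list were at 0. The part of these differences in the results below was not tested. Replicate 2 of AI-10-104 bears on several results, which are given with and without it below, and over all genes the fit without it called 557 genes in the interaction of the agents, where the fit to all samples called 0. In bulk RNA, fewer cells of a type and less RNA per cell cannot be told apart.

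Messages of the ligase were present at very different levels. In DMSO, RBX1 stood at 127 ± 4.27 RPKM (SD, n = 3 for this and the following levels), DDB1 at 126 ± 5.66, CUL4A at 32.0 ± 1.02, CUL4B at 13.5 ± 0.629 and CRBN at 5.89 ± 0.224 RPKM. Thus, by the deposited lengths, the receptor had the lowest message of the ligase. In DMSO 41.5% of the 11241 tested genes lay below CRBN, against 96.0% for DDB1 and 96.0% for RBX1. In DMSO the ratio of DDB1 to CRBN was 21.4 ± 1.45 and that of RBX1 to CRBN 21.6 ± 0.713. CUL4A exceeded CUL4B by a factor of 2.37 ± 0.107 in DMSO and 2.25 ± 0.0953 in LEN, and by 2.41 ± 0.0409 under AI-10-104 and 2.40 ± 0.053 with both agents. These levels, their order and their ratios depend on the gene lengths the authors used. GENCODE 44 annotates more exonic bases, to unequal degrees, with 3092 against the deposited 906 for RBX1 and 33815 against 6110 for CUL4B. For DDB1 it gives 15516 against 4356 and for CRBN 8052 against 3875. Whether CRBN stays below CUL4B by other lengths was not tested.

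Of the other genes, BSG stood at 121 ± 5.94 RPKM in DMSO, CSNK1A1 at 45.1 ± 0.661, SLC16A1 at 38.8 ± 1.09 and ZFP91 at 29.3 ± 1.09 RPKM. The DMSO ranges of RBX1, DDB1 and BSG overlapped, so their order is not resolved. Below them, by the deposited lengths, the order CSNK1A1, SLC16A1, CUL4A, ZFP91, CUL4B, CRBN held in 12 of 12 samples. All samples share these lengths, so agreement between samples does not test the order between genes. GENCODE annotates 8505 exonic bases against the deposited 2795 for CSNK1A1, but 5776 against 5725 for ZFP91. Whether this order holds by other lengths was not tested. The highest of the 12 samples exceeded the lowest by a factor of between 1.1 (DDB1) and 1.43 (RBX1), a ratio of single samples that includes replicate spread.

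GLUL was listed at 0 reads in all 12 samples and could not be tested. EIF4A1, a translation factor gene that every cell uses, was also listed at 0 in all 12 samples, and TUBB, a tubulin gene, at 6 to 16 reads. Both were looked up after the values of GLUL were seen. A value of 0 in this table is therefore not read as absence of the message. ZFP91-CNTF, a read-through gene on the same strand as ZFP91 and overlapping it, was listed at 0 as well.

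**Figure D1:**
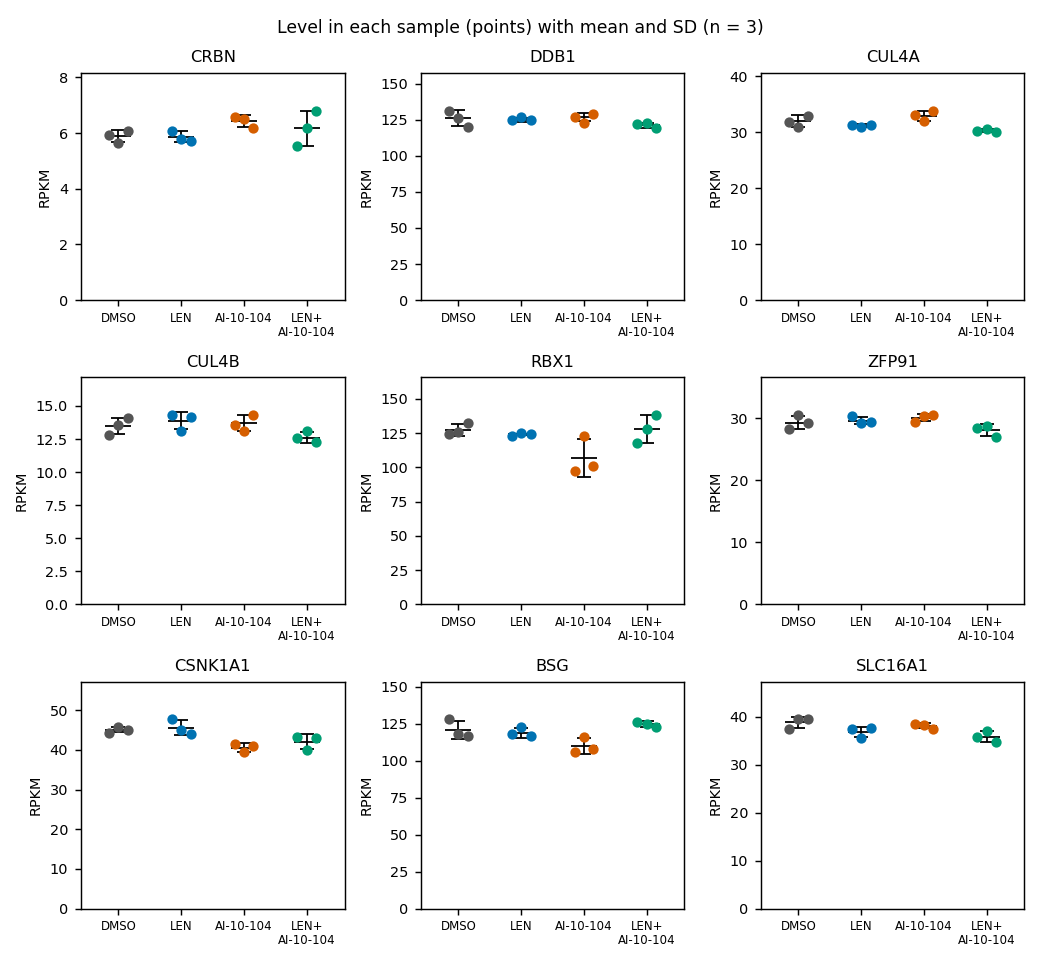
Level of each of the 9 measured genes (vertical axis, RPKM from 0, own scale per panel) in the 3 replicates (points, in order of replicate number) of each condition, with the mean (bar) and SD (whiskers). The genes keep close to their DMSO level, and the widest spread is that of RBX1 in AI-10-104, at 97.1, 123 and 101 RPKM.

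Each gene was tested with limma across all genes on log2(RPKM + 0.1), and a change was called at an adjusted p no higher than 0.05 together with a log2 fold change of 0.32 or more in either direction. Fold changes below are on that scale. The 3 comparisons with DMSO share the DMSO samples, and those with LEN+AI-10-104 share its samples, so their values are not independent of each other. In none of the comparisons was any of the 9 tested genes called. The number of genes called among all tested is given beside each comparison as the background.

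LEN alone was compared with DMSO to ask whether the drug changed the messages of its own target ligase. It called 0 of 9 genes, against 0.649% of all genes, and 0 of 9 at the adjusted p alone, against 1.13%. No gene reached an unadjusted p under 0.05, which 10.7% of all genes did. Log2 fold changes ran from -0.07 (SLC16A1, the MCT1 transporter) to 0.04 (CUL4B), with a median of -0.006 beside -0.002 over all genes. The 95% intervals of all 9 genes lay between a decrease of 13.4% and an increase of 10.8%, so larger changes of a single gene fall outside these intervals. CRBN itself read 5.94, 5.65 and 6.09 RPKM in DMSO and 6.09, 5.78 and 5.73 RPKM in LEN. The groups overlap almost entirely, with a log2 fold change of -0.01 ± 0.07 (SE, adjusted p = 0.987 by limma).

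AI-10-104 alone was compared with DMSO to ask what RUNX inhibition did to these messages. It called 0 of 9 genes, against 1.77% of all genes, and 0 of 9 at the adjusted p alone, against 4.55%. At an unadjusted p under 0.05 there were 3 of 9 (33.3%, against 21.9% of all genes), namely CSNK1A1, RBX1 and BSG, all lower. CSNK1A1, the kinase and neosubstrate, read 44.4, 45.7 and 45.1 RPKM in DMSO and 41.4, 39.4 and 41.1 RPKM in AI-10-104. The groups did not overlap, and the log2 fold change was -0.15 ± 0.04 (SE, 95% interval -0.24 to -0.06, adjusted p = 0.061 by limma). With voom, limma's method for read counts, on the reads computed back from the RPKM, its adjusted p was 0.030, with a log2 fold change of -0.15 that remains under the fold threshold. CSNK1A1L, a close relative without introns, reached at most 0.578 RPKM, and reads that fit both genes could be split between them.

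RBX1, the RING subunit, read 124, 126 and 132 RPKM in DMSO and 97.1, 123 and 101 RPKM in AI-10-104. Replicates 1 and 3 of AI-10-104 were low and replicate 2 lay just under the DMSO range. The log2 fold change was -0.25 ± 0.08 (SE, 95% interval -0.43 to -0.08, adjusted p = 0.090 by limma). Without replicate 2 of AI-10-104 it became -0.36 (adjusted p = 0.0033 by limma) and passed, in a fit that called 3.94% of all genes instead of 1.77%. Without replicate 1 it was -0.19 (adjusted p = 0.316 by limma) and without replicate 3 -0.22 (adjusted p = 0.284 by limma), so the call depends on which library is left out. Voom gave -0.25 with an adjusted p of 0.018, past the adjusted p alone. RBX1 is a short transcript by the deposited length, and the median of the 1030 tested genes of up to 1000 bases stood at -0.08, 0.02 and -0.05 (log2, relative to the DMSO mean) in replicates 1, 2 and 3 of AI-10-104, where RBX1 stood at -0.39, -0.05 and -0.33. With each sample corrected for gene length, the log2 fold change of RBX1 was -0.21 (adjusted p = 0.084 by limma). The part of transcript length in the difference was not tested further.

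BSG, the partner of MCT1, read 128, 118 and 117 RPKM in DMSO and 106, 116 and 108 RPKM in AI-10-104. The groups were separated by less than 1 RPKM, and again replicates 1 and 3 were the low ones, with a log2 fold change of -0.14 ± 0.04 (SE, adjusted p = 0.096 by limma, and 0.045 by voom). CRBN read 6.58, 6.52 and 6.17 RPKM in AI-10-104, all above the DMSO samples. Its log2 fold change of 0.12 ± 0.07 (SE, 95% interval -0.02 to 0.27, adjusted p = 0.302 by limma) did not pass. The 392 to 746 reads behind each CRBN value leave a mean counting error of 3.99% per sample in AI-10-104, next to a coefficient of variation of 3.42% between those replicates. The other 5 genes had log2 fold changes between -0.03 (SLC16A1) and 0.04 (CUL4A and ZFP91), and the intervals of all 9 lay between a decrease of 25.5% and an increase of 20.3%.

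**Figure D2:**
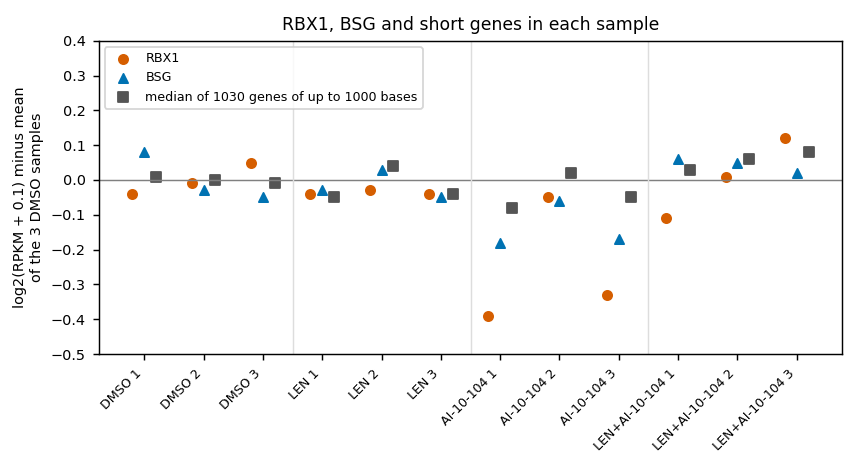
Deviation of RBX1 (circles), BSG (triangles) and the median of 1030 short genes (squares) from the mean of the 3 DMSO samples (vertical axis, log2 scale with pseudocount 0.1) in each sample (horizontal axis, condition and replicate number). RBX1 is at -0.39 and -0.33 in replicates 1 and 3 of AI-10-104 and at -0.05 in replicate 2, and the short-gene medians there are -0.08, -0.05 and 0.02.

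LEN+AI-10-104 was compared with DMSO for the effect of the combination. It called 0 of 9 genes, against 2.94% of all genes, and 0 of 9 at the adjusted p alone, against 8.64%. At an unadjusted p under 0.05 there were 3 of 9 (33.3%, against 23.7% of all genes), which were SLC16A1, CUL4A and CSNK1A1, all lower. SLC16A1 read 37.5, 39.4 and 39.4 RPKM in DMSO and 35.7, 37.0 and 34.7 RPKM in LEN+AI-10-104. The groups did not overlap, at a log2 fold change of -0.12 ± 0.04 (SE, adjusted p = 0.071 by limma). With LEN alone SLC16A1 read 37.4, 35.6 and 37.6 RPKM, at -0.07 ± 0.04 (SE, adjusted p = 0.502 by limma). CUL4A, the more abundant scaffold, read 31.9, 31.0 and 33.0 RPKM in DMSO and 30.2, 30.6 and 30.0 RPKM with both agents. It differed by -0.08 ± 0.03 (SE, adjusted p = 0.166 by limma), and CSNK1A1, at 43.3, 40.0 and 43.1 RPKM with both agents, by -0.10 ± 0.04 (SE, adjusted p = 0.169 by limma). CRBN read 5.54, 6.19 and 6.79 RPKM, the lowest and the highest of its 12 values, with a coefficient of variation of 10.1% beside a counting error of 4.72%. Its log2 fold change of 0.06 ± 0.07 (SE, adjusted p = 0.625 by limma) did not pass. The intervals of all 9 genes lay between a decrease of 13.2% and an increase of 15.3%. Their median was -0.063, beside 0.02 over all genes.

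AI-10-104 added to LEN was read from LEN+AI-10-104 against LEN, which called 0 of 9 genes against 1.68% of all genes, and 0 of 9 at the adjusted p alone against 4.62%. Here 2 of 9 (22.2%, against 20.6% of all genes) had an unadjusted p under 0.05. They were CSNK1A1, at -0.11 ± 0.04 (SE, adjusted p = 0.137 by limma), and CUL4B, at -0.13 ± 0.05 (SE, adjusted p = 0.165 by limma). CUL4B, the less abundant scaffold, read 14.3, 13.1 and 14.2 RPKM in LEN and 12.6, 13.1 and 12.3 RPKM with both agents, so that replicate 2 of each group was nearly equal.

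LEN added to AI-10-104 was read from LEN+AI-10-104 against AI-10-104. It called 0 of 9 genes against 3.63% of all genes, but 3 of 9 (33.3%) passed at the adjusted p alone, against 15.0%, and 6 of 9 (66.7%) had an unadjusted p under 0.05, against 33.2%. The 3 were BSG and RBX1, higher, and CUL4A, lower, all by less than the fold threshold. Each lost this when single libraries were left out, BSG in 4 of the 12 such fits (adjusted p up to 0.089 by limma). CUL4A lost it in 5 (up to 0.115) and RBX1 in 11 (up to 0.169). CUL4A and RBX1 also lost it when only the compared conditions were fitted (0.074 and 0.122). Some of the 12 fits left out a DMSO or LEN library, which does not enter this fold change. All 5 losses of CUL4A came without a library of the 2 compared conditions. Among those libraries, only leaving out replicate 2 of AI-10-104 kept CUL4A past the adjusted p (0.012 by limma). Of the 12 alternatives with no library left out, BSG passed the adjusted p in 12, CUL4A in 11 and RBX1 in 7. The setting without a fold threshold is among the 12 and repeats the same fit, so its adjusted p could not differ. BSG read 126, 125 and 123 RPKM with both agents, above all AI-10-104 samples, at a log2 fold change of 0.18 ± 0.04 (SE, 95% interval 0.09 to 0.27, adjusted p = 0.020 by limma). RBX1 read 118, 128 and 138 RPKM with both agents, a range that takes in replicate 2 of AI-10-104, at 0.26 ± 0.08 (SE, 95% interval 0.09 to 0.43, adjusted p = 0.044 by limma). Corrected for gene length it was 0.17 (adjusted p = 0.083 by limma), the short-gene medians with both agents being 0.03, 0.06 and 0.08. Without replicate 2 of AI-10-104 it was 0.37 (adjusted p = 0.0019 by limma) and passed the fold threshold too, where 6.82% of all genes were called, and without replicate 1 it was 0.20 (adjusted p = 0.169 by limma). CUL4A read 33.1, 32.0 and 33.8 RPKM in AI-10-104 and was lower in all 3 samples with both agents, at -0.12 ± 0.03 (SE, 95% interval -0.19 to -0.05, adjusted p = 0.029 by limma). The remaining genes under an unadjusted p of 0.05 were CUL4B at -0.11, SLC16A1 at -0.09 and ZFP91 at -0.10, with adjusted p from 0.088 to 0.147 by limma. ZFP91, the zinc finger neosubstrate, read 29.4, 30.3 and 30.5 RPKM in AI-10-104 and 28.5, 28.7 and 27.0 RPKM with both agents, against 28.3, 30.5 and 29.2 RPKM in DMSO. DDB1, the adaptor, lay between 119 and 131 RPKM in the 12 samples and had log2 fold changes between -0.06 and 0.01 in the comparisons of conditions, none at an unadjusted p under 0.05.

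**Figure D3:**
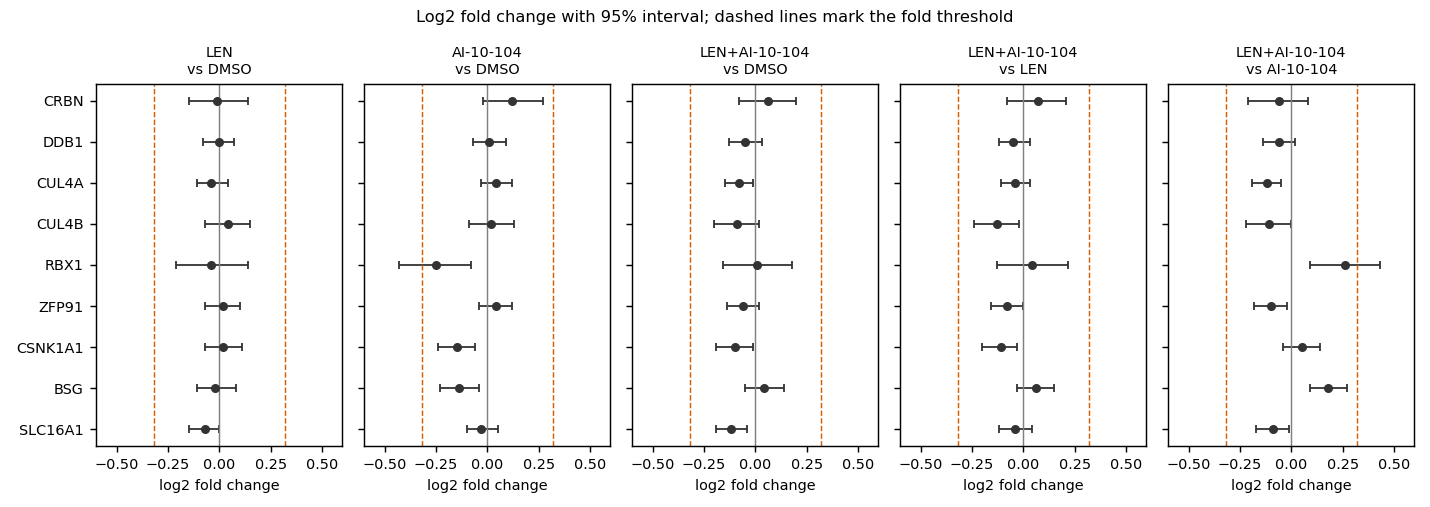
Log2 fold change (horizontal axis, log2 of RPKM + 0.1) of the 9 measured genes (rows) in 5 comparisons (panels), with 95% intervals from limma. Dashed lines mark the fold threshold of 0.32, and no point lies beyond them. RBX1 comes closest, at -0.25 with AI-10-104 against DMSO and 0.26 with both agents against AI-10-104.

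The interaction asks whether the change with both agents differed from the sum of the changes with each alone, on the log2 scale. At the adjusted p none of the 9 genes passed, against 0.0% of all genes by limma, where voom on the reads called 3 genes of the whole table and 0 of the 9. At an unadjusted p under 0.05 there were 3 of 9 (33.3%, against 14.4% of all genes, or 1621 genes). They were BSG at 0.20 ± 0.06 (SE, adjusted p = 0.281 by limma), RBX1 at 0.30 ± 0.11 (SE, adjusted p = 0.303 by limma) and ZFP91 at -0.11 ± 0.05 (SE, adjusted p = 0.347 by limma). Without replicate 2 of AI-10-104, RBX1 at 0.40 (adjusted p = 0.022 by limma) and BSG at 0.23 (adjusted p = 0.038 by limma) passed, in a fit that called 557 genes of the whole table (4.95%).

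Between ligase subunits, the ratio of RBX1 to CRBN was 16.7 ± 2.06 in AI-10-104, from 14.8 to 18.9, and 20.8 ± 0.417 with both agents. In LEN it was 21.1 ± 0.766. The ratio of DDB1 to CRBN ranged between 17.6 and 22.3 over all samples, its groups overlapping. BSG over SLC16A1 was 3.12 ± 0.245 in DMSO and 3.25 ± 0.192 in LEN, and 2.89 ± 0.136 under AI-10-104 and 3.48 ± 0.0825 with both agents. These ratios are given as descriptions, with no test.

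Over the 12 samples, which share the 4 conditions, the genes whose log2 values followed CRBN most closely were FAM212B (Pearson r = 0.89), MRPL32 (0.87), SNORA71B (0.87), RAD9B (0.87) and MED6 (0.85), chosen as the highest correlations among all tested genes. None of the other ligase subunits was among them. CUL4A had an r of 0.23 with CRBN, RBX1 of -0.09, CUL4B of -0.16 and DDB1 of -0.23, and the lowest of the measured genes was CSNK1A1 at -0.50. CRBN varied little in these samples, and part of its variation is counting error.

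The surrounding pathways gave 141 further genes, of which 127 could be tested. Against DMSO, 0 of them were called in LEN, 1 (0.787%) under AI-10-104 and 3 (2.36%) with both agents, below the shares of all genes given above. LEN+AI-10-104 called 0 against LEN, beside 1.68% of all genes, and 3 (2.36%) against AI-10-104, beside 3.63%. The interaction called 0 of them and 0 of all genes. None of the 29 genes of NEDD8 attachment, the COP9 signalosome, cullin exchange and ubiquitin transfer was called in any comparison. With AI-10-104 their log2 fold changes ran from -0.13 to 0.21, with a median of 0.07 beside 0.008 over all genes. None of 28 other CUL4 substrate receptors, 12 cereblon binding partners or 5 casein kinase 1 genes (CSNK1A1 included) was called either. CSNK1E and HK1 were listed at no more than 0.108 RPKM and were not tested.

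Of 16 other reported neosubstrates, ZNF653 and ZNF692, both zinc finger proteins, were called. Against DMSO this was 1 (6.25%) under AI-10-104, beside 1.77% of all genes, and 1 (6.25%) with both agents, beside 2.94%. In LEN+AI-10-104 against AI-10-104 it was 2 (12.5%), beside 3.63% of all genes. ZNF653 read 3.48, 3.44 and 3.42 RPKM in DMSO, 2.87, 3.53 and 3.07 in LEN, 2.45, 2.65 and 2.29 in AI-10-104, and 3.10, 3.52 and 3.08 RPKM with both agents. It fell with AI-10-104 by 0.47 on the log2 scale (SE 0.08, adjusted p = 0.0087 by limma), on 119 to 175 reads per sample in that condition. It rose by 0.38 in LEN+AI-10-104 against AI-10-104 (adjusted p = 0.015 by limma), a call lost with a pseudocount of 1 (0.29), and without replicate 1 or 3 of AI-10-104 or replicate 2 of LEN+AI-10-104. ZNF692 read 13.4, 13.7 and 13.1 RPKM in DMSO, 15.3, 16.2 and 14.6 in LEN, 13.5, 12.6 and 13.2 in AI-10-104, and 17.1, 17.1 and 16.5 RPKM with both agents. All LEN samples lay above DMSO, at 0.20 ± 0.04 (SE, adjusted p = 0.057 by limma). With both agents it rose by 0.33 against DMSO (SE 0.04, adjusted p = 0.00085 by limma) and by 0.36 against AI-10-104 (SE 0.04, adjusted p = 0.00088 by limma). The first value sits at the fold threshold and went under it with median-ratio rescaling (0.30), quantile normalization, gene length correction or a pseudocount of 1 (0.31 each), and without replicate 3 of DMSO (0.31).

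Around GLUL, 2 of 19 tested genes of glutamine metabolism (10.5%) fell with both agents against DMSO, where 2.94% of all genes were called, beside a median of -0.084 for the list and 0.02 for all genes. The largest difference in the list was in the other direction, in the glutaminase gene GLS2, at a log2 fold change of 0.61 that did not pass (adjusted p = 0.088 by limma). GLS2 was named after its value was seen. ASNS, which makes asparagine with nitrogen from glutamine, read 31.0, 29.5 and 32.3 RPKM in DMSO and 21.9, 23.9 and 25.5 RPKM with both agents, a decrease by 0.38 on the log2 scale (SE 0.07, adjusted p = 0.0093 by limma). GPT2, a mitochondrial alanine aminotransferase, read 21.0, 19.2 and 20.7 RPKM in DMSO and 15.5, 15.2 and 15.4 RPKM with both agents, a decrease by 0.40 (SE 0.05, adjusted p = 0.00031 by limma). Neither was called with a single agent, but both read lower there too. GPT2 was at -0.18 ± 0.05 (SE) in LEN and -0.14 ± 0.05 in AI-10-104. ASNS was at -0.18 ± 0.07 (SE) in LEN and -0.10 ± 0.07 in AI-10-104. Their interactions did not pass, at -0.08 for GPT2 (adjusted p = 0.559 by limma) and -0.10 for ASNS (adjusted p = 0.662 by limma). Around BSG and SLC16A1, 1 of 22 tested genes of lactate transport and glycolysis (4.55%) was called in LEN+AI-10-104 against AI-10-104, a share close to the 3.63% of all genes. This was PDK1, a kinase that restrains entry of pyruvate into mitochondria, which read 21.7, 21.0 and 20.8 RPKM in AI-10-104 and 16.0, 16.6 and 15.7 RPKM with both agents. It fell by 0.39 (SE 0.03, adjusted p = 0.0002 by limma). In LEN alone PDK1 was at 16.2, 16.3 and 16.4 RPKM, all below its DMSO values of 19.4, 20.2 and 19.5, at a log2 fold change of -0.27 (adjusted p = 0.0023 by limma) that stayed under the fold threshold.

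**Figure D4:**
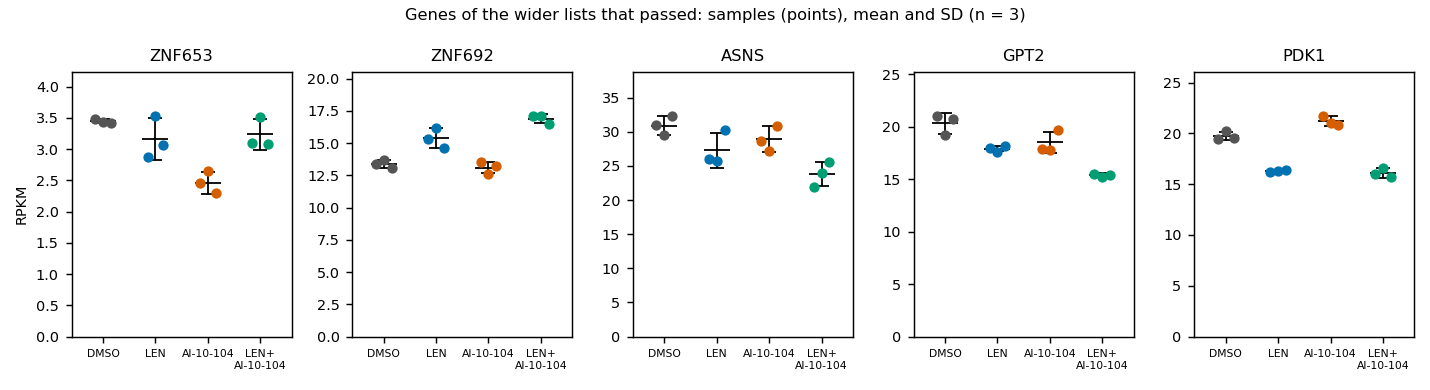
Level (vertical axis, RPKM from 0) of the 5 genes of the surrounding lists that passed in any comparison, in the 3 replicates (points) of each condition with the mean and SD. ZNF653 is lowest in AI-10-104, ZNF692 highest and ASNS and GPT2 lowest with both agents, and PDK1 is lower in LEN and LEN+AI-10-104, at 15.7 to 16.6 RPKM, than in the other conditions.

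In GRCh38 with GENCODE 44 the genes lie on separate chromosomes or far apart. CRBN is at chromosome 3:3144628-3179727, DDB1 at 11:61299451-61342596, CUL4A at 13:113208193-113267108, CUL4B at X:120505920-120604074 and RBX1 at 22:40951347-40973309. ZFP91 is at 11:58579063-58621550, CSNK1A1 at 5:149492982-149551471, GLUL at 1:182378098-182392206, BSG at 19:571277-583494 and SLC16A1 at 1:112911847-112957593. RBX1 and GLUL overlap no other annotated gene. CRBN overlaps TRNT1, DDB1 overlaps TKFC, CUL4A overlaps PCID2, CUL4B overlaps MCTS1, BSG overlaps BSG-AS1 and SLC16A1 overlaps SLC16A1-AS1, each on the opposite strand. On the same strand, CSNK1A1 overlaps the lncRNA ENSG00000230551 and the pseudogene RPL29P14, and CUL4A overlaps the microRNA gene MIR8075, so that reads there cannot be assigned by strand. The strand used in counting is not given in the sources used here, so reads from such pairs may not be separated.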

How the data were processed

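RNA of OPM-1 cells was sequenced in 4 conditions with 3 biological replicates each, from a directional poly(A) library kit. The submitters' processing notes name FastQC, STAR, Cuffnorm, DESeq2 and the GRCh38 build. The authors deposited RPKM values for 38478 genes, 28 of them named by a spreadsheet date number. The gene lengths given with them are labelled as from featureCounts, which the notes do not name. Samples were grouped by their titles. In each sample 100% of values were whole multiples of a single read (tolerance 0.05 reads), so reads were computed back. Their total per sample, 16352548 to 31386210, sets the precision, and counting errors cover counting only, since without molecular identifiers copies of a molecule count repeatedly.

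The 11241 genes whose mean reached 0.5 RPKM were fitted with limma 3.58.1 (R 4.3.3) on log2(RPKM + 0.1), with all 12 samples, 1 mean per condition, a variance trend and Benjamini-Hochberg adjustment. A call required an adjusted p no higher than 0.05 and a log2 fold change of 0.32 or more in either direction (for the interaction, the adjusted p alone). The members and lists were chosen with earlier results of these data known. The text names all 10 members, genes of the lists called in a comparison (at most 4 per list and comparison) and the 5 genes most correlated with CRBN. Alternatives were pseudocounts of 1 and 0.01, quantile normalization, a minimum mean of 1 RPKM, no minimum beyond a value above 0, median-ratio rescaling, only the compared conditions, the replicate block, no variance trend, no fold threshold, voom on the reads, and each replicate left out. A gene length correction (lowess, span 0.3) was chosen after seeing the data. The procedure was tested on simulated data. Tables were made with Python 3.11.15, numpy 2.4.6 and pandas 2.3.3, and figures with matplotlib 3.10.9.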

Additional observations from a re-analysis of the deposited data

How the results depend on the processing

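The number of the 9 tested genes called was 0 in each of the 6 comparisons and stayed 0 under the alternatives that used all samples, except that without a fold threshold 3 passed in LEN+AI-10-104 against AI-10-104. Leaving out 1 replicate gave 0 to 1 called in AI-10-104 against DMSO, 0 to 1 in LEN+AI-10-104 against AI-10-104 and 0 to 2 in the interaction, each higher value without replicate 2 of AI-10-104, where the same fits called 443, 767 and 557 of all genes against 199, 408 and 0. With the replicate block 0 of the 9 were called, and 79, 228, 368, 218, 473 and 0 of all genes, against 73, 199, 331, 189, 408 and 0 without it (LEN, AI-10-104 and both against DMSO, both against LEN, both against AI-10-104, interaction). Same-numbered samples of different conditions correlated in their deviations with a mean r of 0.052 (-0.027 to 0.155). For samples of different number the mean r was -0.026 (-0.133 to 0.059). These values do not settle whether the numbers pair the samples. In the interaction, calls over all genes rose from 0 by voom (3) and without a variance trend (1). Calls also moved by over 1.5 times with only the compared conditions fitted (113 in AI-10-104 against DMSO, 243 in LEN+AI-10-104 against AI-10-104). Without a fold threshold they did so as well (127, 512, 971, 519 and 1683 in the order above). They also did so on leaving out libraries: in LEN against DMSO without replicate 2 or 3 of DMSO (47 and 48) or 1 or 3 of LEN (35 and 41), in AI-10-104 against DMSO without replicate 1 of DMSO (123) or 1 or 3 of AI-10-104 (119 and 128), in LEN+AI-10-104 against AI-10-104 without replicate 1 or 3 of AI-10-104 (185 and 214) or 1 of LEN+AI-10-104 (218), and in the interaction without replicate 3 of LEN+AI-10-104 (2). Of 1278 alternative log2 fold changes of the 9 genes, 30 had another sign than the value reported, all where that was at most 0.07 in size, and the largest shift was 0.11. The 1278 include those without a fold threshold, which equal the reported values by design. CRBN, with at most 746 reads per sample, is limited by depth most of the 9.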
